A study of Mus musculus with 13 samples.

Results

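Sox9 and 4 genes of its locus were followed through 13 RNA-seq libraries of mouse limb buds: the long intergenic non-coding RNA (lincRNA) genes Gm11681 and 2610035D17Rik, the potassium channel gene Kcnj2 and the zinc transporter gene Slc39a11. They were chosen by symbol from a table of 12880 genes, and all 5 were found there. Each value is a normalized RPKM, a read count scaled to gene length and library depth, from the limb buds of separate embryos. At embryonic day E11.5 there were 3 controls of genotype Sox9fl/- (1 floxed and 1 null allele) and 4 Sox9-/- mutants, labelled Sox9null. At E12.5 there were 3 controls of genotype Sox9fl/fl and 3 Sox9fl/flPrx1CreER mutants, labelled Sox9cKO. The controls of the 2 ages therefore differed in genotype, and so did the mutants, so age and genotype cannot be told apart between ages. In Prx1CreER the hormone-inducible recombinase CreER is driven by the Prx1 (Prrx1) limb enhancer, which acts in limb mesenchyme and not in all cells of the bud. The series asked how far early cartilage formation depends on Sox9.

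SOX9 is the transcription factor that drives mesenchymal cells to become chondrocytes, acting with SOX5 and SOX6 on genes of the cartilage matrix such as Col2a1 and Acan. Its gene lies in a region poor in protein-coding genes, with enhancers spread over a large domain on both sides, and loss of such enhancers is known to cause skeletal disease. Kcnj2 encodes the inwardly rectifying channel Kir2.1 and lies across a domain boundary upstream of Sox9. Slc39a11 encodes the zinc transporter ZIP11. The functions of Gm11681 and 2610035D17Rik are less well known.

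In GRCm38, the assembly also called mm10, Sox9 spans chr11:112782224-112787760 on the plus strand in the GENCODE M21 annotation, with 3 exons of 792, 254 and 3089 bp. Gm11681 lies at chr11:112792731-112799008 on the minus strand, and its 3 exons cover 870 bp. Its annotated span ends 4970 bp past the end of Sox9, so the genes do not overlap. 2610035D17Rik lies 256 kb downstream of Sox9 at chr11:113043895-113201838, also on the minus strand, with 4 annotated transcripts. Slc39a11 follows on the minus strand at chr11:113244853-113650079, 457 kb from Sox9. Kcnj2 lies 1705 kb upstream at chr11:111066164-111076821 on the plus strand. Reads of overlapping genes on opposite strands cannot be told apart if strand was ignored, a setting not given in the sources used here.

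RefSeq promoter windows of the same assembly (GRCm38.p6, 250 bases before to 50 after the start) matched 4 of the 5 members. Those of the lincRNA genes are shown because these members had opposite directions in the mutants. Capitals mark letters of the motifs searched on both strands: TATAAA, the TATA box, and ACAATG and ACAAAG, cores to which SOX proteins bind; no marked motifs overlap. Sequences run 5′ to 3′ on the minus strand, from chr11:112798959-112799258 and chr11:113201789-113202088.
Gm11681: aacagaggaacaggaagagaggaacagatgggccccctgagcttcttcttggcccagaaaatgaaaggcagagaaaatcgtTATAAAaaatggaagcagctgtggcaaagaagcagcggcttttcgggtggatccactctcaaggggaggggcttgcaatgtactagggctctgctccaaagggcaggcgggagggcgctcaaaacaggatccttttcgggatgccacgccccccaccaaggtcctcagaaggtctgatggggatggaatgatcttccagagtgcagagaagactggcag
2610035D17Rik: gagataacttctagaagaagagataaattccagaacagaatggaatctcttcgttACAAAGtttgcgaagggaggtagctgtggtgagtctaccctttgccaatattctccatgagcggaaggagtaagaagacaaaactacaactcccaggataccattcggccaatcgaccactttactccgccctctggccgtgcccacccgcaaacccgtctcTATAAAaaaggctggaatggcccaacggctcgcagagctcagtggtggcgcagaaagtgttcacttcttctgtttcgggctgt
The Gm11681 window held TATAAA 169 bases before the start and neither of the SOX cores. The 2610035D17Rik window held TATAAA 33 bases before the start and ACAAAG 195 bases before it. Of 32851 promoter windows of this length, 13.6% held TATAAA, 12.6% ACAATG and 18.7% ACAAAG on either strand. These are matches of letters only.

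By clustering, 4 libraries of E11.5 stood together (controls 1 and 3 with Sox9null 3 and 4, the larger set), apart from the remaining 3 (control 2 with Sox9null 1 and 2, the smaller set). Correlations across genes were 0.979 to 0.989 within the sets and 0.938 to 0.966 between them. The mean of 4 Y-linked genes was 22.7 to 23.8 RPKM in the E12.5 controls and in Sox9cKO 3 but at most 0.0512 in Sox9cKO 1 and 2, and at E11.5 it was high only in control 1 and Sox9null 3. All 12 limb mesenchyme markers had values, with summed levels of 479 to 588 RPKM. Total read depth is unknown, so no counting error is given.

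Sox9 itself was lower in every mutant library than in every control of its age, a change of the mean of -42.3% at E11.5 and -11.6% at E12.5. At E11.5 it was at 35.8, 49.3 and 37.1 RPKM in controls 1 to 3 and at 20.6, 25.7, 25.04 and 22.7 RPKM in Sox9null 1 to 4. Control 2 stood above the other controls, and the groups did not overlap. Means were 40.7 ± 7.47 (SD, n = 3) and 23.5 ± 2.35 RPKM (SD, n = 4). The difference in log2(RPKM + 1) was -0.76 (SE 0.111, 95% CI -1 to -0.52), and Sox9 fell at a limma adjusted p of 0.036. In this comparison limma called 0.0543% of all genes at an adjusted p under 0.05, and Sox9 was the only member called. The call was lost without any of 11 of the 13 libraries in turn, with adjusted p up to 0.139, while the difference stayed between -0.84 and -0.62. The difference was -0.59 within the larger set of libraries and -1.07 within the smaller.

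At E12.5 Sox9 was at 37.5, 35.2 and 35.9 RPKM in the controls and at 35.1, 28.7 and 32.2 RPKM in Sox9cKO. The groups did not overlap, but the lowest control and the highest mutant were 35.2 and 35.1. The log2 difference was -0.18 (95% CI -0.43 to 0.08) and was not called, at a limma adjusted p of 1. The exact two-sided permutation p was 0.0571 at E11.5 and 0.1 at E12.5, in each case the smallest that the group sizes allow. Sox9 remained among the higher listed genes: 71.2% of them had a lower mean in Sox9null and 84.1% in Sox9cKO. In the respective controls the shares were 91.5% and 89.1%. The table gives a single value over all exons, of which exon 3 makes up 74.7% and exon 1 19.2% of the transcript. The labels do not say which exons the mutant alleles lack, so the level does not measure intact Sox9 mRNA. In these whole limb buds, fewer cells of a type and less RNA per cell cannot be told apart.

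**Figure D1:**
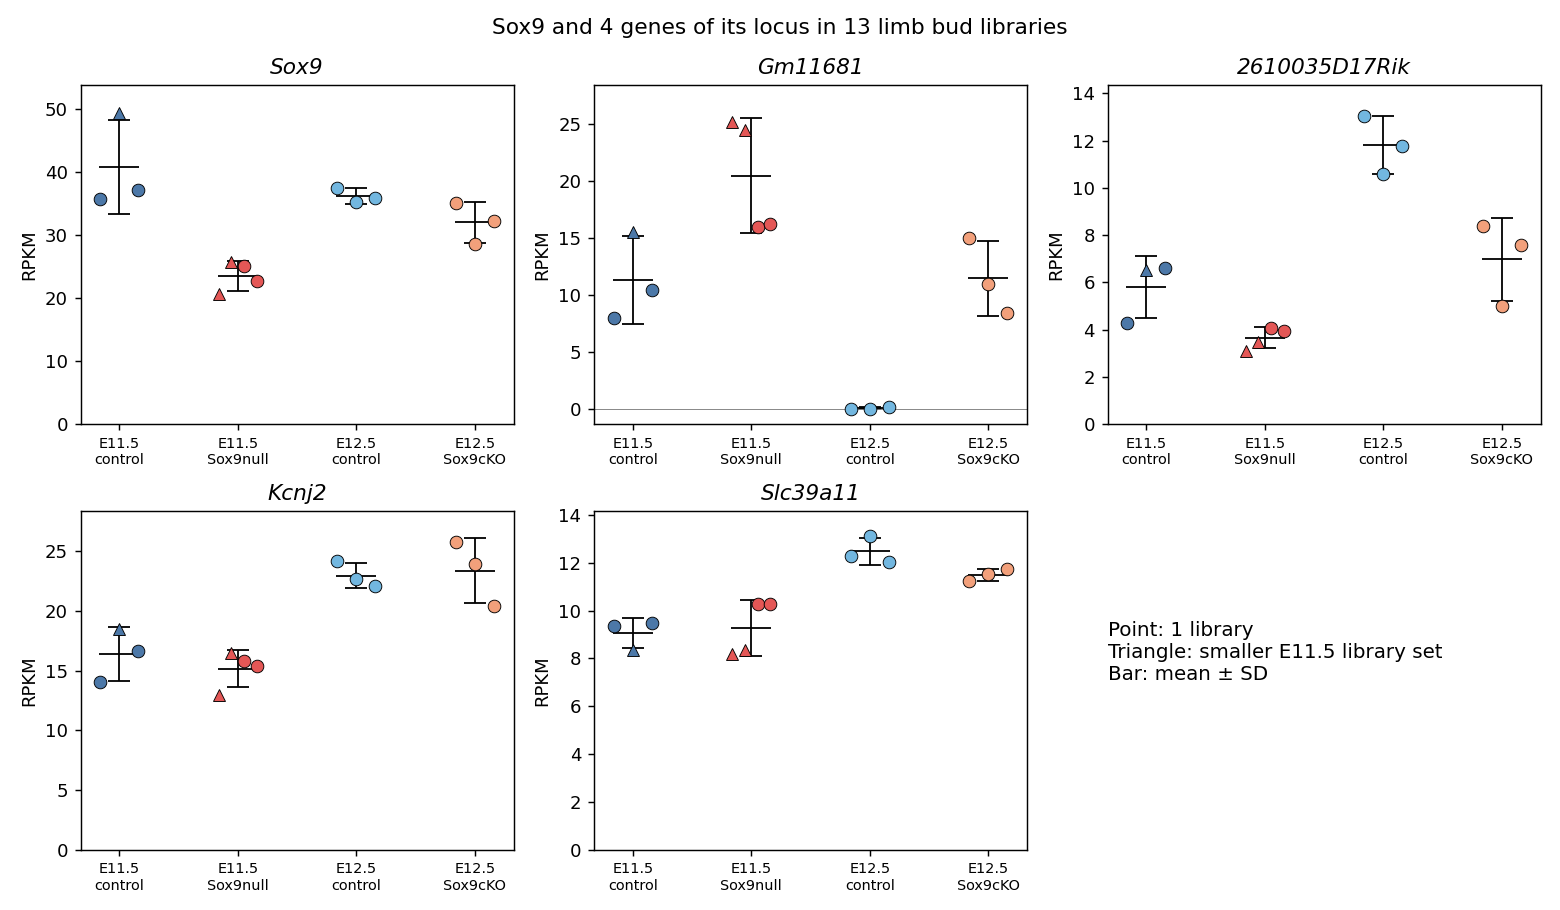
Normalized RPKM (vertical axes) of the 5 genes in the 4 groups; each point is 1 library, triangles mark the smaller E11.5 set, and bars give mean ± SD. Sox9 was lowest in the 4 Sox9null libraries (20.6 to 25.7), while Gm11681 was at 0 to 0.201 in the E12.5 controls and at 7.96 or more in all other libraries.

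Gm11681, the nearest of the other members to Sox9, had the opposite direction to it at both ages. In the E12.5 controls it was listed at 0, 0 and 0.201 RPKM, and in Sox9cKO 1 to 3 at 14.98, 10.97 and 8.43 RPKM. Every mutant library was far above every control. The log2(RPKM + 1) difference was 3.52 (SE 0.254, 95% CI 2.96 to 4.07), and Gm11681 rose at a limma adjusted p of 8.15e-05. It was the only member called there, where 0.194% of all genes were called, and it stayed called under all 21 alternatives. The log scale understates the change of a gene near 0, and with a pseudocount of 0.1 the difference was 6.28. No ratio is given, because 2 of the 3 controls are listed at 0. In the E12.5 controls Gm11681 ranked 12878 of the 12880 listed genes by mean, and in Sox9cKO 35.3% of the listed genes had a lower mean. Only genes with a group mean of at least 3 RPKM are listed. Genes low in every group are therefore absent, and a low place follows partly from that choice.

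At E11.5 Gm11681 was at 7.96, 15.6 and 10.5 RPKM in the controls and at 25.2, 24.5, 16.01 and 16.2 RPKM in Sox9null. The groups did not overlap, although the highest control (15.6) came close to the lowest mutant (16.01). The mean was 1.81 times as high in Sox9null, 20.5 ± 5.06 (SD, n = 4) against 11.3 ± 3.87 RPKM (SD, n = 3). The log2 difference was 0.82 (95% CI 0.30 to 1.34) with an unadjusted p of 0.00504 and a limma adjusted p of 0.902, so it was not called. The level followed the library sets: control 2 and Sox9null 1 and 2, the smaller set, were the highest of their groups. Within the sets, the ratio of Sox9null to control was 1.75 in the larger and 1.6 in the smaller, with log2 differences of 0.76 and 0.64. With the set as a term the adjusted p was 0.0894.

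Across the 4 groups the order of Gm11681 was Sox9null highest, Sox9cKO and the E11.5 controls next, and the E12.5 controls lowest. Sox9cKO (8.43 to 14.98) and the E11.5 controls (7.96 to 15.6) had overlapping ranges. By the header's genotypes, the lincRNA had a mean of 11.3 in Sox9fl/- and 20.5 in Sox9-/- at E11.5. At E12.5 it was near 0 in Sox9fl/fl and at 11.46 in Sox9fl/flPrx1CreER. No genotype was present at both ages, so age and genotype cannot be told apart between them. As a share of the Sox9 RPKM, Gm11681 was at 22.3% to 31.5% in the E11.5 controls and 63.9% to 122% in Sox9null. It was at 0 to 0.561% in the E12.5 controls and 26.2% to 42.7% in Sox9cKO. The correlation of Gm11681 with Sox9 in log2(RPKM + 1) was -0.443 over the 13 libraries. For deviations from the group means, pooled over groups, it was 0.448, as a description of libraries that share groups. The groups were not alike. In the E11.5 controls and in Sox9cKO, the library highest in Sox9 (49.3 and 35.1 RPKM) was also highest in Gm11681 (15.6 and 14.98 RPKM). That E11.5 control was the control of the smaller set. In Sox9null the library lowest in Sox9 (20.6 RPKM) was highest in Gm11681 (25.2 RPKM). The E12.5 controls, with Gm11681 near 0, add little, so no relation within single groups is drawn.

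**Figure D2:**
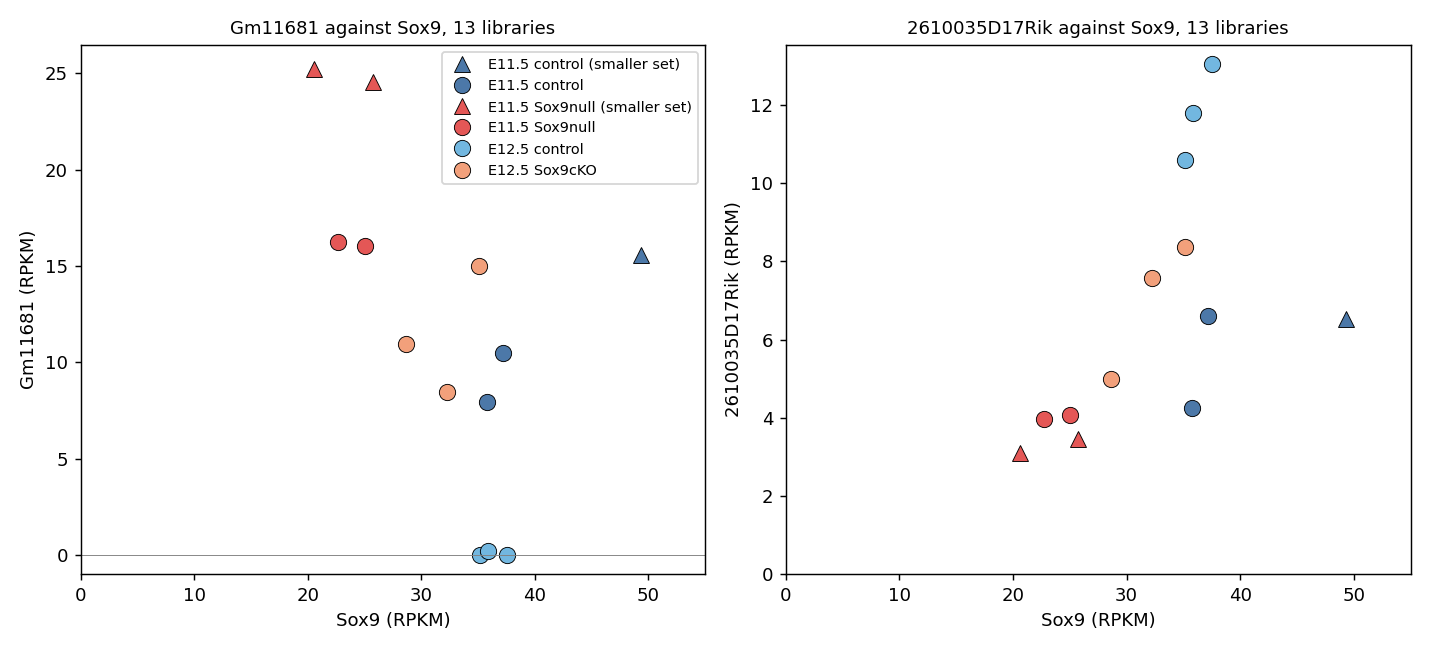
RPKM of Gm11681 (left) and 2610035D17Rik (right) against RPKM of Sox9; each point is 1 library, coloured by group, with triangles for the smaller E11.5 set. At Sox9 levels of 35.1 to 37.5 RPKM, Gm11681 ranges from 0 in E12.5 controls to 14.98 in Sox9cKO 1, and 2610035D17Rik from 4.26 in an E11.5 control to 13.1 in an E12.5 control.

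Levels of red blood cell markers and of Y-linked genes also differed among the E12.5 libraries, and their values stand here beside the Gm11681 result. All 15 erythroid markers with values were above 0 in the mutant differences at both ages, against 56.8% of all genes at each age. The markers had medians of 0.36 and 0.62, against 0.01 for all genes. Their summed level was 655 to 711 RPKM in the E12.5 controls and 904 to 1115 in Sox9cKO, and 848 to 956 against 870 to 1506 at E11.5. At E12.5 limma called 1 of the 15 (Rhag, of the red cell membrane, 0.77, adjusted p 0.0375), where 0.194% of all genes were called. Gm11681 was at 0 to 0.201 RPKM in the E12.5 controls and at 8.43 to 14.98 RPKM in Sox9cKO. The part of red blood cells in the Gm11681 difference was not tested. In Sox9cKO 3 the Y-linked level was 23.3 RPKM, like that of the controls, and Gm11681 was at 8.43 RPKM. Sox9cKO 1 and 2, with Y-linked levels of at most 0.0512 RPKM, had Gm11681 at 14.98 and 10.97 RPKM. With the Y-linked level as a term, the E12.5 difference of Gm11681 was 3.16 at a limma adjusted p of 0.000111.

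2610035D17Rik had the same direction as Sox9 at both ages, with a change of the mean of -37% at E11.5 and -40.9% at E12.5. At E11.5 it was at 4.26, 6.53 and 6.60 RPKM in the controls and at 3.11, 3.47, 4.07 and 3.96 RPKM in Sox9null. At E12.5 it was at 13.1, 10.6 and 11.8 RPKM in the controls and at 8.37, 4.99 and 7.57 RPKM in Sox9cKO. The groups did not overlap at either age, though control 1 (4.26) and Sox9null 3 (4.07) were close.

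The log2 differences of 2610035D17Rik were -0.53 (95% CI -0.90 to -0.16) and -0.71 (95% CI -1.10 to -0.31). Neither was called: limma adjusted p was 1 at E11.5 and 0.235 at E12.5, with unadjusted p of 0.00836 and 0.00211. Without the smaller set, the E11.5 difference was -0.33. Relative to Sox9, 2610035D17Rik was at 11.9% to 17.8% of its RPKM in the E11.5 controls and 13.5% to 17.4% in Sox9null. At E12.5 the shares were 30.1% to 34.8% in controls and 17.4% to 23.9% in Sox9cKO.

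Kcnj2 and Slc39a11 had mutant differences near 0. Kcnj2 was at 14.02, 18.5 and 16.6 RPKM in the E11.5 controls and at 12.9, 16.5, 15.8 and 15.4 RPKM in Sox9null. At E12.5 the channel gene was at 24.1, 22.7 and 22.1 RPKM in controls and 25.8, 24.0 and 20.4 RPKM in Sox9cKO, so the groups overlapped at both ages. Its log2 differences were -0.10 (95% CI -0.33 to 0.13) and 0.02 (95% CI -0.23 to 0.26), each at a limma adjusted p of 1.

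Slc39a11 was at 9.37, 8.36 and 9.49 RPKM in the E11.5 controls and at 8.17, 8.34, 10.3 and 10.3 RPKM in Sox9null. Its 3 lowest values were those of the smaller set, whatever their genotype. At E12.5 it was at 12.3, 13.1 and 12.0 RPKM in controls and 11.2, 11.53 and 11.7 RPKM in Sox9cKO, without overlap. The log2 differences were 0.02 (95% CI -0.16 to 0.21) and -0.11 (95% CI -0.30 to 0.09), at a limma adjusted p of 1. The intervals of both genes leave out changes as large as that of Sox9 at E11.5.

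Counted over the members, the mutant and control groups did not overlap for 3 of 5 at E11.5 and 4 of 5 at E12.5. Over all genes the groups did not overlap for 2.47% and 20%, respectively.

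**Figure D3:**
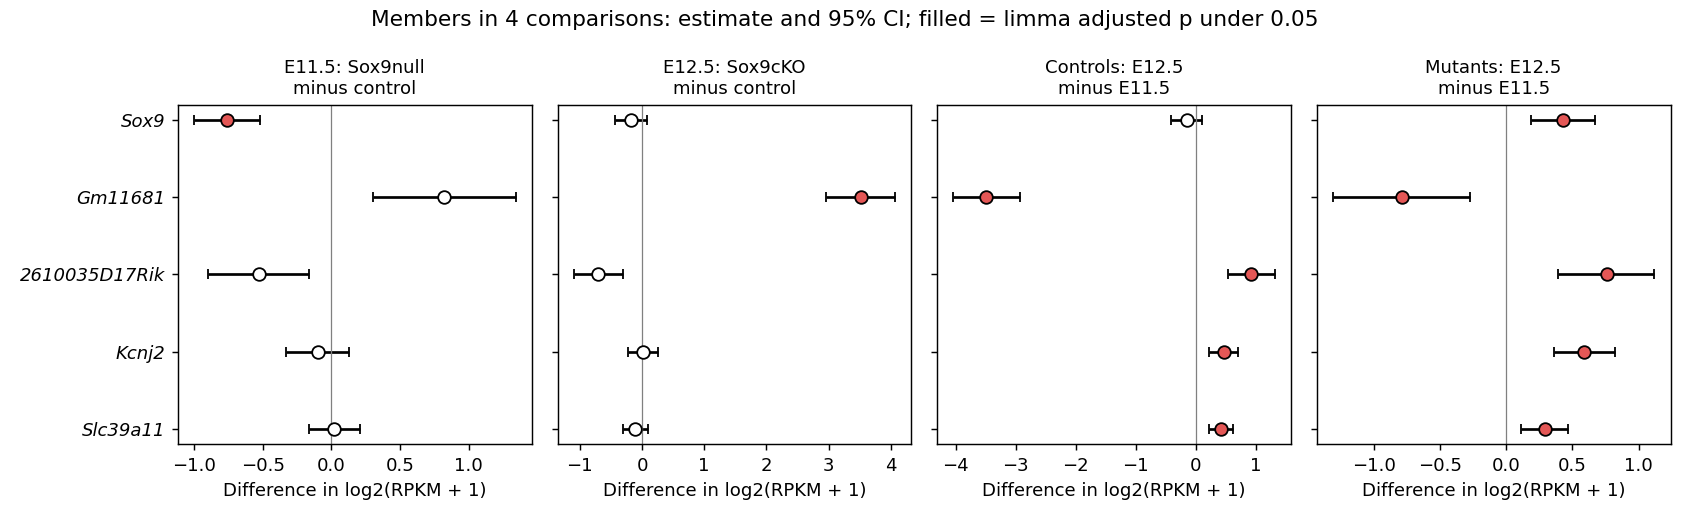
Differences in log2(RPKM + 1) of the 5 genes with 95% confidence intervals in the 2 mutant comparisons and the 2 age comparisons; axes differ between panels, and filled points had a limma adjusted p under 0.05. In the mutant comparisons 1 gene is filled at each age, Sox9 at E11.5 (-0.76) and Gm11681 at E12.5 (3.52).

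The window from 2 Mb before to 2 Mb after Sox9 holds 37 annotated genes, of which 12 had values and 25 were not analysed here. Only Kcnj2 of the 12 lies upstream. The 7 that are not members were Cog1, which overlaps the start of Slc39a11 on the other strand, Fam104a, which overlaps Cog1, D11Wsu47e, Cpsf4l, Cdc42ep4, the ribosomal protein gene Rpl38 and Ttyh2. Their mutant differences ran from -0.07 to 0.21 at E11.5 and from -0.12 to 0.16 at E12.5. Limma called 0 of the 7 at either age, and 0 had an unadjusted p under 0.05. Rpl38, which has near-identical copies elsewhere in the genome, was the highest at both ages (0.21 and 0.16) and is uncertain. Gm11681, Sox9 and 2610035D17Rik were the only genes of the 12 to start within 420 kb of the Sox9 start. The start of 2610035D17Rik sets that limit, and the members were chosen with earlier results of these data known. No relation to distance is therefore drawn. These 3 genes had the 3 largest differences in size at each age among the 12. At E12.5 that of Sox9 (-0.18, 95% CI -0.43 to 0.08) was not called and was close in size to that of Rpl38. Other genes near Sox9, such as BC006965 and 4933434M16Rik, were not analysed here.

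**Figure D4:**
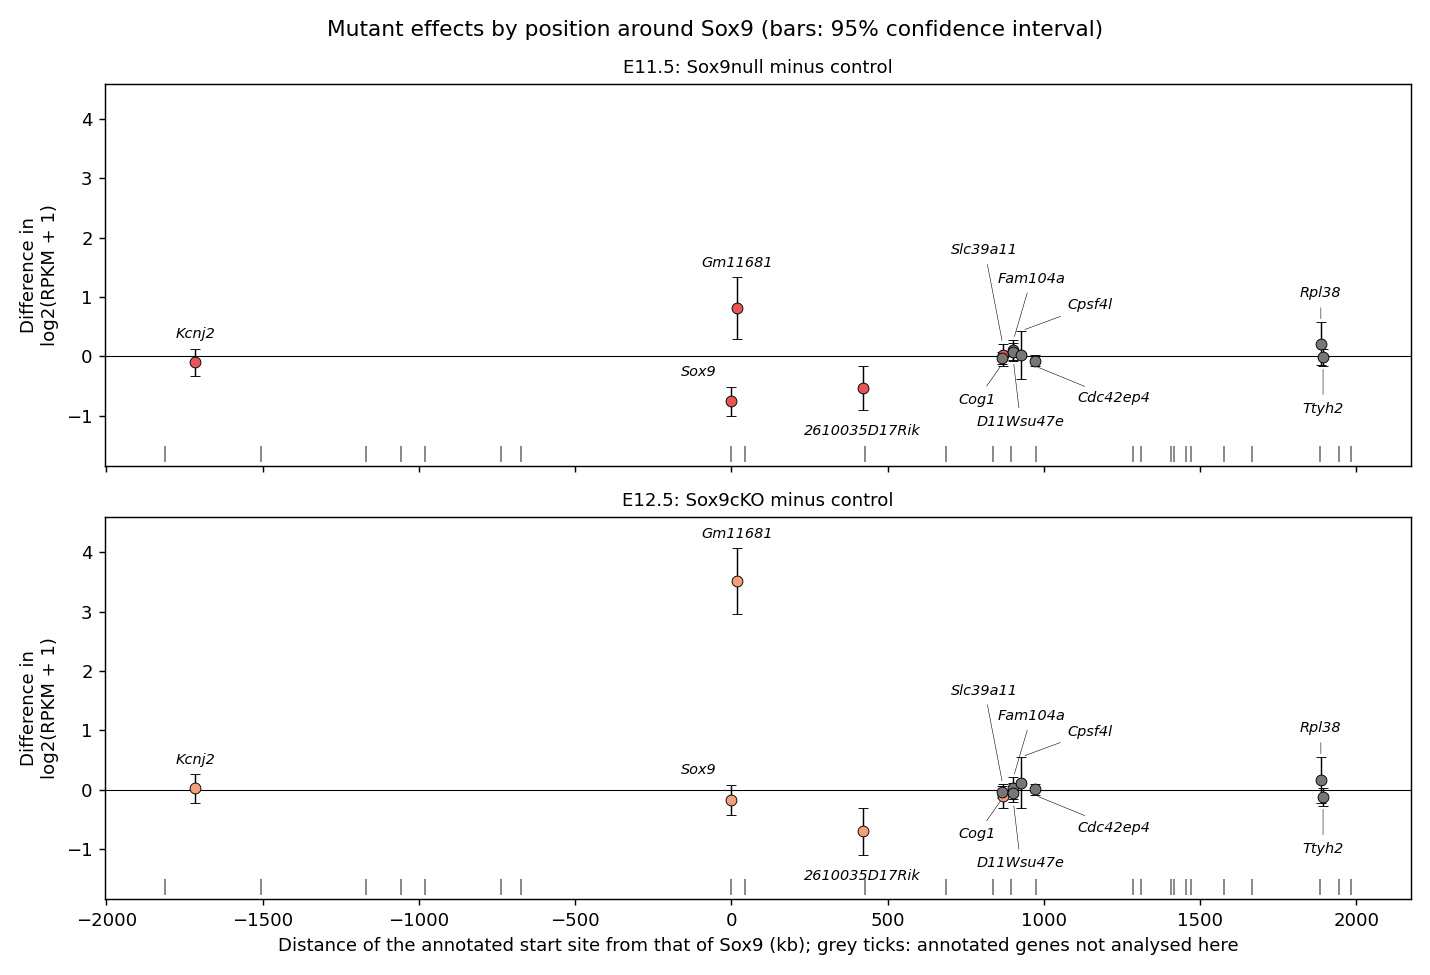
Mutant minus control difference in log2(RPKM + 1), with 95% confidence interval, against distance of the annotated start site from that of Sox9 (kb), at E11.5 (top) and E12.5 (bottom); members are coloured, neighbours grey, and ticks mark 25 annotated genes not analysed here. Gm11681 stands at 0.82 and 3.52, and the 7 neighbours lie between -0.12 and 0.21.

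The mutant effects were also compared between ages, on the log2(RPKM + 1) scale. The difference of the effects (E12.5 minus E11.5) was 2.70 for Gm11681 (SE 0.348, 95% CI 1.94 to 3.46), at a limma adjusted p of 0.0254, in a comparison where 0.0311% of all genes were called. It was the only member called, and the call was lost without any of 8 of the 13 libraries in turn (difference 2.46 to 2.91, adjusted p up to 0.13). For Sox9 the difference of effects was 0.58 (95% CI 0.23 to 0.93), with an unadjusted p of 0.00381 and a limma adjusted p of 1. For 2610035D17Rik it was -0.17 (95% CI -0.71 to 0.36), for Kcnj2 0.12 and for Slc39a11 -0.13. The E11.5 controls of this comparison carried a null allele and the E12.5 controls did not.

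Between the ages, 4 of the 5 members changed in controls, where 21.7% of all genes were called, and all 5 in mutants, where 19.7% were called. The values of the ages did not overlap for 4 of 5 members in controls, as for 45.9% of all genes, and for 5 of 5 in mutants, against 33.5% of all genes. Gm11681 had a mean of 11.3 RPKM in the E11.5 controls (Sox9fl/-) and was at 0, 0 and 0.201 in the E12.5 controls (Sox9fl/fl). The log2 difference was -3.49 (95% CI -4.04 to -2.93, limma adjusted p 3.48e-05). In mutants Gm11681 had means of 20.5 RPKM in Sox9null and 11.46 in Sox9cKO, a difference of -0.79 at an adjusted p of 0.0379 with limma. That call was lost in 9 of 21 alternatives, among them the fit without the smaller set (-0.49, adjusted p 0.0856).

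The members farther from Sox9 had higher levels at E12.5 in controls and in mutants, whose genotypes differed between the ages. 2610035D17Rik rose from 5.80 ± 1.33 to 11.8 ± 1.23 RPKM (SD, n = 3 each) in controls and from 3.65 ± 0.448 (SD, n = 4) to 6.97 ± 1.77 RPKM (SD, n = 3) in mutants. Its log2 differences were 0.93 and 0.76, with limma adjusted p of 0.00444 and 0.012, and the call in mutants was lost without Sox9cKO 1 (0.63, adjusted p 0.06). Kcnj2 rose by 0.47 in controls and 0.59 in mutants (limma adjusted p 0.0124 and 0.00509), and the call in controls was lost without E11.5 control 1 (0.0507) or E12.5 control 1 (0.0556). Slc39a11 rose by 0.42 and 0.29 (limma adjusted p 0.00713 and 0.0328), and the call in mutants was lost in 7 of 21 alternatives. Sox9 in controls had a difference of -0.15 (95% CI -0.41 to 0.11, limma adjusted p 0.372). In mutants it rose by 0.43 (limma adjusted p 0.0214), from 23.5 to 32.0 RPKM, between genotypes that differ. Without Sox9cKO 1 or Sox9cKO 3 that call was lost, at adjusted p of 0.0922 and 0.0587, as it was with the replicate block (0.41, adjusted p 0.0535). Of the 7 neighbours, Ttyh2 rose by 0.41 in controls and 0.30 in mutants (limma adjusted p 0.00226 and 0.00995), and Cpsf4l fell by 0.61 in controls (adjusted p 0.0473).

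Genes that act with, under or before SOX9 were counted in the same comparisons. Of SOX9's partners and paralogues, Sox5 had a mean of 7.45 RPKM in E11.5 controls and 4.07 in Sox9null, and 9.15 and 5.18 at E12.5. Sox6 was at 8.84 and 3.87 RPKM at E11.5 and at 20.2 and 8.45 at E12.5. Sox10 was at 2.05 and 0.722 RPKM and then at 3.57 and 1.71, and Sox8 had differences of 0.16 and 0.21. Limma called 0 of these 4 genes at either age, while 3 of them, Sox5, Sox6 and Sox10, had an unadjusted p under 0.05 at each. Over all genes an unadjusted p under 0.05 was found for 2.82% at E11.5 and 5.41% at E12.5.

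Cartilage genes known as SOX9 targets were below 0 in the mutant differences for 21 of 22 listed genes at E11.5 and for 22 of 22 at E12.5. Their medians were -0.50 and -0.87, against 0.01 for all genes at each age, of which 56.8% were above 0. Limma called 3 lower at E11.5, where 0.0543% of all genes were called lower. They were Col9a2 (-1.58) and Col9a3 (-2.09), chains of type IX collagen, and Lect1 (-2.16), which encodes chondromodulin. At E12.5 it called 6 lower, where 0.14% of all genes were called lower: the proteoglycan gene Acan (-2.50), Matn1 (-3.11), Col11a2 (-2.09), Mia1 (-1.58), Chadl (-0.66) and Chst11 (-0.53). Of the most abundant, Col2a1 was at 60.8 RPKM in E11.5 controls and 32.6 in Sox9null (-0.89, limma adjusted p 0.0537), and at 70.6 and 46.1 at E12.5 (adjusted p 0.186). Wwp2, which hosts a cartilage microRNA, had differences of -0.50 and -0.53, Col9a1 of -0.39 and -0.38, and none of these was called. Means of Matn1 and Acan in E11.5 controls were 0.481 and 0.249 RPKM.

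Signals and factors that act upstream of Sox9 in the limb gave 0 calls of 29 at E11.5 with limma, with 0 at an unadjusted p under 0.05. At E12.5 the single call was the BMP antagonist gene Nog (-1.47, limma adjusted p 0.0159), where 0.194% of all genes were called. Nog was at 14.3 RPKM in controls and 4.5 in Sox9cKO. An unadjusted p under 0.05 was found for 6 of the 29, against 5.41% of all genes. The most abundant were Ctnnb1, the patterning gene Hoxd13, Wnt5a and Hoxa13, with mutant differences between -0.11 and 0.04. The SOX9 cofactors gave 0 calls of 12 at either age with limma and 1 at an unadjusted p under 0.05 at each. Of these, Prkaca, Smad3, Zfp219 and Carm1 were the most abundant, with differences between -0.05 and 0.04.

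For each member the 5 genes with the most similar pattern over the 13 libraries were taken from 11658 genes. The libraries share groups and library sets, and the correlations are a description. For Sox9 these were Abca8b (Pearson r 0.89), Col2a1 (0.86), Fam181b (0.852), Lmo4 (0.851) and Fbln2 (0.841). Abca8b lies on the same chromosome 2.85 Mb from Sox9, beside related Abca8 and Abca9 genes with which it could share reads. Its group means were 4.86 and 3.04 RPKM in E11.5 controls and Sox9null and 5.43 and 4.78 at E12.5. Within groups its deviations followed those of Sox9 with r = 0.753, while Col2a1 gave 0.434, Fam181b 0.311, Lmo4 0.623 and Fbln2 0.581.

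The pattern of 2610035D17Rik was most like those of Wwp2 (0.973), Kank1 (0.968), the cartilage matrix gene Matn4 (0.967), Fzd9 (0.966) and Col11a2 (0.961). Deviations from group means gave 0.925 for Wwp2, 0.874 for Col11a2, 0.785 for Fzd9, 0.779 for Matn4 and 0.745 for Kank1. For Gm11681 the genes were Dpyd (0.894), Rbm38 (0.894), the embryonic globin gene Hba-x (0.862), Rbpms2 (0.857) and Oaz2 (0.856). Of these, Hba-x had a correlation of -0.388 within groups and Dpyd 0.77. Rbm38 (-0.0688), Rbpms2 (-0.0978) and Oaz2 (0.187) had within-group correlations nearer to 0. Kcnj2 was most like Ddit4l (0.977), Tmem200a (0.976), Stim1 (0.973), Pdgfd (0.968) and Rgnef (0.967), all with higher means at E12.5 in controls and in mutants. Slc39a11 was most like Dcun1d2 (0.977), Bdh1 (0.975), Mbip (0.974), Zfp655 (0.974) and Tmem50b (0.973).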

How the data were processed

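RNA-seq was done on total RNA of 13 limb bud libraries. The authors' deposited table holds a normalized RPKM for each gene and library and, per the file headers, genes with a group mean of at least 3. Per the submitters' processing notes, CASAVA 1.8 and mm10 were used; aligner, counting, strand use and between-library normalization: not given in the sources used here. Deposited group means were used only as a check, and the authors' p-values not at all. Depth is unknown: low values of genes under 2500 bp did not fall on steps of whole reads (30.9% to 44.9% within 0.15 of a multiple, 30% without steps; several other settings gave none), so no count model was run.

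RPKM were tested on the log2(RPKM + 1) scale with limma 3.58.1 (R 4.3.3; trend, robust), with 4 group means over 13 libraries and Benjamini-Hochberg adjustment over 12880 genes; calls are two-sided at an adjusted p under 0.05. A filter of 1 RPKM in 3 libraries removed 0 genes. Fold changes on this scale understate those of low genes. Permutation tests used SciPy 1.17.1. The script was tested on simulated data. Coordinates are GENCODE M21.

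Named genes were the members, listed genes within 2 Mb of Sox9, called or the 4 most abundant members of the 4 pathway lists, and the 5 genes most like each member, predicted genes and means under 3 RPKM left out. Members and lists were chosen with earlier results of these data known. In the target list, 22 of 26 symbols had values, and Cnmd and Mia are newer names of Lect1 and Mia1. Alternatives changed the pseudocount, filter, scaling, prior, library set, Y-linked level, replicate block, libraries fitted and each library left out.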

Additional observations from a re-analysis of the deposited data

Results flagged for a closer look

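The mutant effect on Gm11681, measured on a log scale, differed between the ages by a test of the difference itself. It was 2.70 higher on the log2(RPKM + 1) scale at E12.5 than at E11.5 (limma adjusted p 0.0254). All 3 Sox9cKO libraries were above all controls at E12.5, as were all 4 Sox9null libraries at E11.5. The call was lost in 9 of 20 alternatives, among them the replicate block (2.60, adjusted p 0.368) and 8 of the 13 fits without a library (adjusted p up to 0.13). With a pseudocount of 0.1 the difference of effects was 5.41. These values depend on the scale, because the E12.5 controls were near 0. In RPKM, the control and mutant means were 11.32 and 20.49 at E11.5 and 0.067 and 11.46 at E12.5. A difference of effects in RPKM was not tested. The controls of the 2 ages differ in genotype as well as age, and their parts cannot be told apart.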

How the results depend on the processing

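Over the 5 members and 5 comparisons, 468 of 525 differences under an alternative kept their direction and side of the threshold, 45 lost a call and 12 changed sign. At E11.5 the count of members called was 0 rather than 1, with Sox9 losing its call, under quantile normalization (-0.73, limma adjusted p 0.0691), with the Y-linked level as a term (-0.76, adjusted p 0.0571) and with only the 2 groups compared (-0.76, adjusted p 0.523); without each library in turn the count ranged from 0 to 1 and the difference from -0.84 to -0.62. With only the larger set of E11.5 libraries, an alternative chosen after seeing the data, Sox9 was at -0.59 (adjusted p 0.0345). For the difference of effects, leaving out libraries gave 0 to 1 members called and a Gm11681 value of 2.46 to 2.91. Between ages in mutants, 2 to 5 members were called without each library, 3 with only the 2 groups compared. Values near 0 changed sign: Slc39a11 at E11.5 was -0.01 under quantile normalization and -0.03 to 0.08 without each library; Kcnj2 was 0.03 at E11.5 in the larger set, -0.09 at E12.5 with the Y-linked term and -0.05 to 0.11 without each library; and the 2610035D17Rik difference of effects was -0.30 to 0.02.

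The replicate numbers did not pair libraries (same-number correlations -0.435 to 0.635; 1 of 6 controls was most like its own number). With the replicate block, Sox9 at E11.5 was -0.74 (limma adjusted p 0.0437), Slc39a11 -0.02, Gm11681 at E12.5 3.52 (adjusted p 0.00555) and its difference of effects 2.60 (adjusted p 0.368), with 0 members called in that comparison. Between ages in mutants, Sox9 was 0.41 with the block (adjusted p 0.0535) and lost its call, so 4 members were called rather than 5.

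Counts over all genes moved more. At E11.5, 7 genes were called, against 41 with the set of libraries as a term, 27 in the larger set, 0 with only the 2 groups compared, and 2 to 8 without each library. At E12.5, 25 were called, against 105 with the set as a term, 57 under quantile normalization, 16 with the replicate block, and 9 to 47 without each library. For the difference of effects, 4 were called, against 2 with a pseudocount of 0.1 or a filter of 5 RPKM, 0 with the block, and 1 to 11 without each library. Between ages, 2794 in controls became 5546 and 2539 in mutants became 4498 with the larger set, 924 in mutants with only the 2 groups compared, and 1381 to 3374 and 708 to 2976 without each library. The cause was not tested.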
